A study of Homo sapiens with 9 samples.

Results

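The genes examined here are those most often read as the switch between the epithelial and the mesenchymal state: the cadherins CDH1, CDH2 and CDH3, the intermediate filament gene VIM, the transcription factor genes TWIST1, SNAI1, SNAI2, ZEB1 and ZEB2, and the tight junction gene TJP1. The 10 genes were chosen with earlier results of these data known. Their probes were taken by name, as every probe that the array files list under 1 of these gene names, with no measured value used. That gave 10 genes of 43317 named on the array, measured by 17 probes of 58201. RNA was measured in 3 stable lines of T47D, an estrogen receptor-positive human breast cancer line of luminal type, with 3 one-color arrays per line and 9 in all. T47D-PA6 cells carry the full-length PTH-AS, a long noncoding RNA transcribed from downstream of the parathyroid hormone gene PTH. T47D-PA5 cells carry an incomplete PTH-AS that lacks part of its 5′ side, and T47D-VC1 cells carry the empty vector. All 3 lines share the same plasmid backbone (pTARGET) and G418 selection, and each construct is represented by 1 line. The PTH-AS lines were picked for high expression of their insert, so that a difference between lines and a difference between the selected clones cannot be told apart. The sources used here do not say whether the 3 arrays of a line come from separate cultures, so the p-values measure the spread between arrays, which may be technical.

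Epithelial cells are held together by E-cadherin, the product of CDH1, at adherens junctions and by scaffold proteins such as ZO-1, the product of TJP1, at tight junctions. In an epithelial-mesenchymal transition, factors of the SNAI, ZEB and TWIST families repress or bypass CDH1, N-cadherin (CDH2) takes the place of E-cadherin, and vimentin (VIM) filaments appear. T47D cells are known as a strongly epithelial line with high E-cadherin and little vimentin. P-cadherin (CDH3) is a classical cadherin of basal and myoepithelial breast cells.

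A probe was called detected when the scanner software marked it as well above background, and it was tested when it was detected on all 3 arrays of at least 1 line. By that rule 7 of the 17 probes, of 6 genes, were tested: CDH1, TJP1, CDH3, VIM, SNAI1 and both probes of the TWIST1 mRNA. Detection followed the members' roles only in part. The epithelial genes CDH1 and TJP1, as well as CDH3, SNAI1 and TWIST1, were detected on all 9 arrays. VIM was detected on none of the T47D-VC1 arrays and on all 3 arrays of each of T47D-PA5 and T47D-PA6. CDH2, SNAI2, ZEB1 and ZEB2 were not detected throughout any line. In all, 6 probes were detected on every T47D-VC1 array and 7 on every array of T47D-PA5 and of T47D-PA6, and 9 of the 17 were detected on no array.

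**Figure D1:**
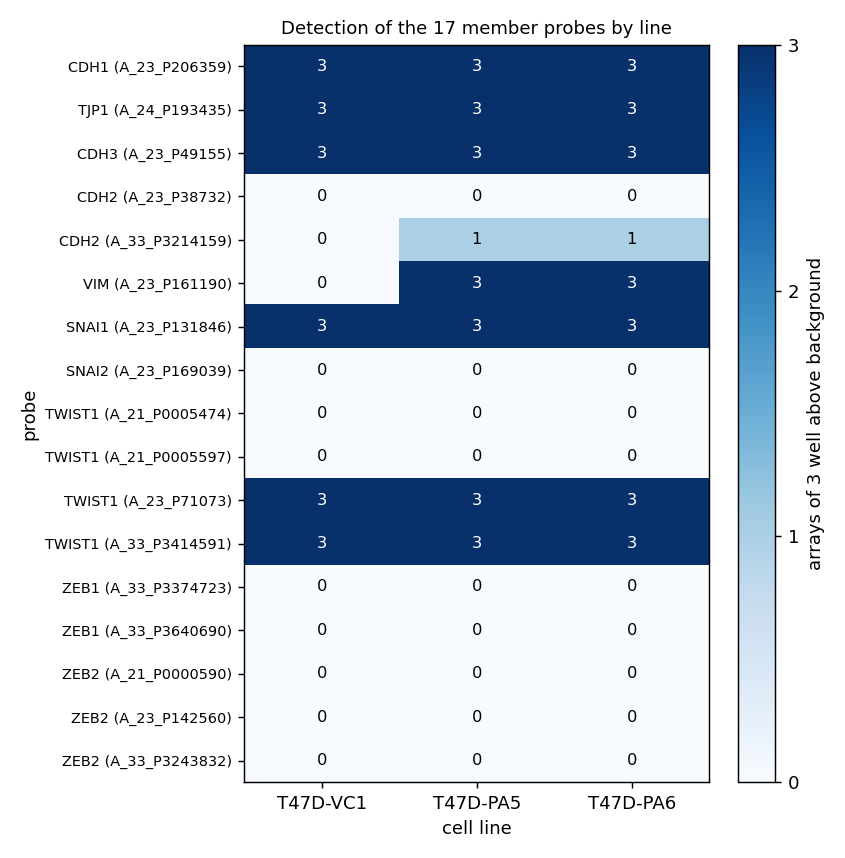
Number of arrays, of 3 per cell line (columns), on which each of the 17 probes (rows) was well above background, from 0 (white) to 3 (dark blue). The VIM row goes from 0 in T47D-VC1 to 3 in both other lines, and 9 rows hold 0 in every line.

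The probes behind the largest differences are given here in sequence, because both lie in the protein-coding part of their mRNA and the reading of VIM and TWIST1 rests on them. The array files place the VIM probe at chr10:17278347-17279256 (hg19, plus strand), a span of 910 bases for a probe of 60 bases, so it is exonic and joins exons across an intron. They place this TWIST1 probe at chr7:19156462-19156521 (hg19, minus strand). Both are printed 5′ to 3′ in the sense of the mRNA, with no part marked.
VIM probe: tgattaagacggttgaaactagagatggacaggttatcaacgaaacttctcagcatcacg
TWIST1 probe: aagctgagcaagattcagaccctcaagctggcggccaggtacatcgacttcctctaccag

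VIM, the intermediate filament gene of mesenchymal cells, was higher in both PTH-AS lines than in T47D-VC1, with T47D-PA6 the highest of the 3. Its normalized signal, the linear value after quantile normalization, was 5.84, 6.47 and 6.83 on the T47D-VC1 arrays, 22.9, 25.8 and 26.2 on the T47D-PA5 arrays, and 34.8, 91.3 and 96.9 on the T47D-PA6 arrays. The 3 lines did not overlap, and within T47D-PA6 the array of replicate 1 lay well below the other 2. Because no T47D-VC1 array measured VIM well above background, the folds against that line are bounds: the dim side was set to the lowest signal well above background on each T47D-VC1 array, 10.9 to 14.2. On that basis the VIM signal of T47D-PA6 was at least 5.41-fold higher and that of T47D-PA5 at least 2.0-fold higher. The tests used the signals without this floor (limma, adjusted p = 0.00116 for T47D-PA6 and 0.0311 for T47D-PA5). They therefore rest on T47D-VC1 signals below background. The log2 fold change of T47D-PA6 over T47D-PA5, where both lines measured the probe, was 1.44 ± 0.34 (SE, limma, adjusted p = 0.0344). In these bulk RNA samples more cells with vimentin and more vimentin mRNA per cell cannot be told apart.

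The VIM calls differed in how far they held. With the normexp background correction, which adds an offset of 50 to each signal, T47D-PA6 over T47D-VC1 still passed the test (limma, adjusted p = 0.00641), while T47D-PA5 over T47D-VC1 did not (limma, adjusted p = 0.327). The call for T47D-PA6 over T47D-VC1 passed in 9 of 9 refits that each left out 1 array. The call for T47D-PA5 over T47D-VC1 passed in 3 of the 9. It was lost without any 1 of the T47D-VC1 or T47D-PA5 arrays, with adjusted p up to 0.127 (limma). The call for T47D-PA6 over T47D-PA5 passed in 2 of the 9, those without replicate 1 of T47D-VC1 or of T47D-PA6, with adjusted p up to 0.122 in the others (limma). The log2 fold change kept its sign in all 9 refits of each comparison.

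The arrays were scanned on 2 dates. Replicate 1 of each line, on 1 slide, was read in scan run 1, and the other 6 arrays, on another 2 slides, in scan run 2. Within scan run 1, with 1 array per line and no test, the VIM signal exceeded that of T47D-VC1 at least 2.78-fold in T47D-PA6 and at least 1.83-fold in T47D-PA5, with the same floor. Within scan run 2, with 2 arrays per line, the bounds were 7.55-fold and 2.09-fold.

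TWIST1, a basic helix-loop-helix factor that drives mesenchymal programs, was higher in both PTH-AS lines, and here the incomplete PTH-AS had the higher level. On the probe printed above, the normalized signals were 279.9, 295 and 261 in T47D-VC1, 814, 1164 and 1007 in T47D-PA5, and 526, 583 and 613 in T47D-PA6. The 3 lines did not overlap, and their order was T47D-VC1, then T47D-PA6, then T47D-PA5. The fold was 3.53 in T47D-PA5 over T47D-VC1 (log2 1.82 ± 0.14 SE, limma, adjusted p = 0.000984) and 2.06 in T47D-PA6 over T47D-VC1 (log2 1.04 ± 0.14 SE, limma, adjusted p = 0.00395). T47D-PA6 lay below T47D-PA5 by a factor of 1.72 (log2 -0.78, limma, adjusted p = 0.0127). Both calls against T47D-VC1 passed in 9 of 9 refits without 1 array. The call between the PTH-AS lines passed in 8 of them and was lost without replicate 3 of T47D-PA5, with an adjusted p of 0.0544 (limma). Within scan run 1 the log2 differences from T47D-VC1 were 1.54 in T47D-PA5 and 0.91 in T47D-PA6, and within scan run 2 they were 1.98 and 1.12.

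The second probe of the TWIST1 mRNA lies toward its 3′ end at chr7:19155645-19155704, 757 bases away in hg19 coordinates. It was read at lower signals and gave the same order of lines. Its normalized signals were 46.5, 38.3 and 28.1 in T47D-VC1, 105, 99.6 and 117 in T47D-PA5, and 78.1, 65.3 and 42.6 in T47D-PA6. T47D-PA5 stood clear of both other lines, whereas T47D-PA6 and T47D-VC1 overlapped. Its difference of T47D-PA5 over T47D-VC1 passed the test, at 1.54 ± 0.25 on the log2 scale (SE, limma, adjusted p = 0.0228), and that call was lost without replicate 2 or 3 of either of these lines, with adjusted p up to 0.106 (limma). The log2 fold change of T47D-PA6 over T47D-VC1 was 0.71 (limma, adjusted p = 0.106) and that of T47D-PA6 over T47D-PA5 was -0.83 (limma, adjusted p = 0.0712). With the replicate number as a block the last of these passed the test (limma, adjusted p = 0.0473), and so it did with scan run as a block (limma, adjusted p = 0.0363). Another 2 probes that the files list under TWIST1 belong to a noncoding transcript whose nearest probe lies 115743 bases away from the mRNA probes, and both were detected on no array.

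CDH3, which encodes P-cadherin, was higher in both PTH-AS lines than in T47D-VC1. The normalized signals of its probe at chr16:68732812-68732871 (hg19) were 1760.1, 2339.8 and 2136 in T47D-VC1, 3431, 3625 and 3239.9 in T47D-PA5, and 2959.95, 2939 and 2954 in T47D-PA6. Every array of both PTH-AS lines was above every T47D-VC1 array, and T47D-PA5 was also above T47D-PA6. The rise over T47D-VC1 was 1.66-fold in T47D-PA5 (log2 0.73 ± 0.12 SE, limma, adjusted p = 0.0249) and 1.43-fold in T47D-PA6 (log2 0.52 ± 0.12 SE, limma, adjusted p = 0.0312). The difference between the PTH-AS lines, -0.22 on the log2 scale with a 95% interval of -0.49 to 0.06, did not pass the test (limma, adjusted p = 0.309). Both rises kept their sign in 9 of 9 refits but passed the test in 4. They were lost without replicate 3 of T47D-VC1 and without replicate 2 or 3 of either PTH-AS line, with adjusted p up to 0.101 for T47D-PA6 and 0.116 for T47D-PA5 (limma). Scaling each array to its 75th percentile in place of quantile normalization also ended the call for T47D-PA6 (limma, adjusted p = 0.0749). Within scan run 1 the log2 differences were 0.96 in T47D-PA5 and 0.75 in T47D-PA6, and within scan run 2 they were 0.61 and 0.40.

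**Figure D2:**
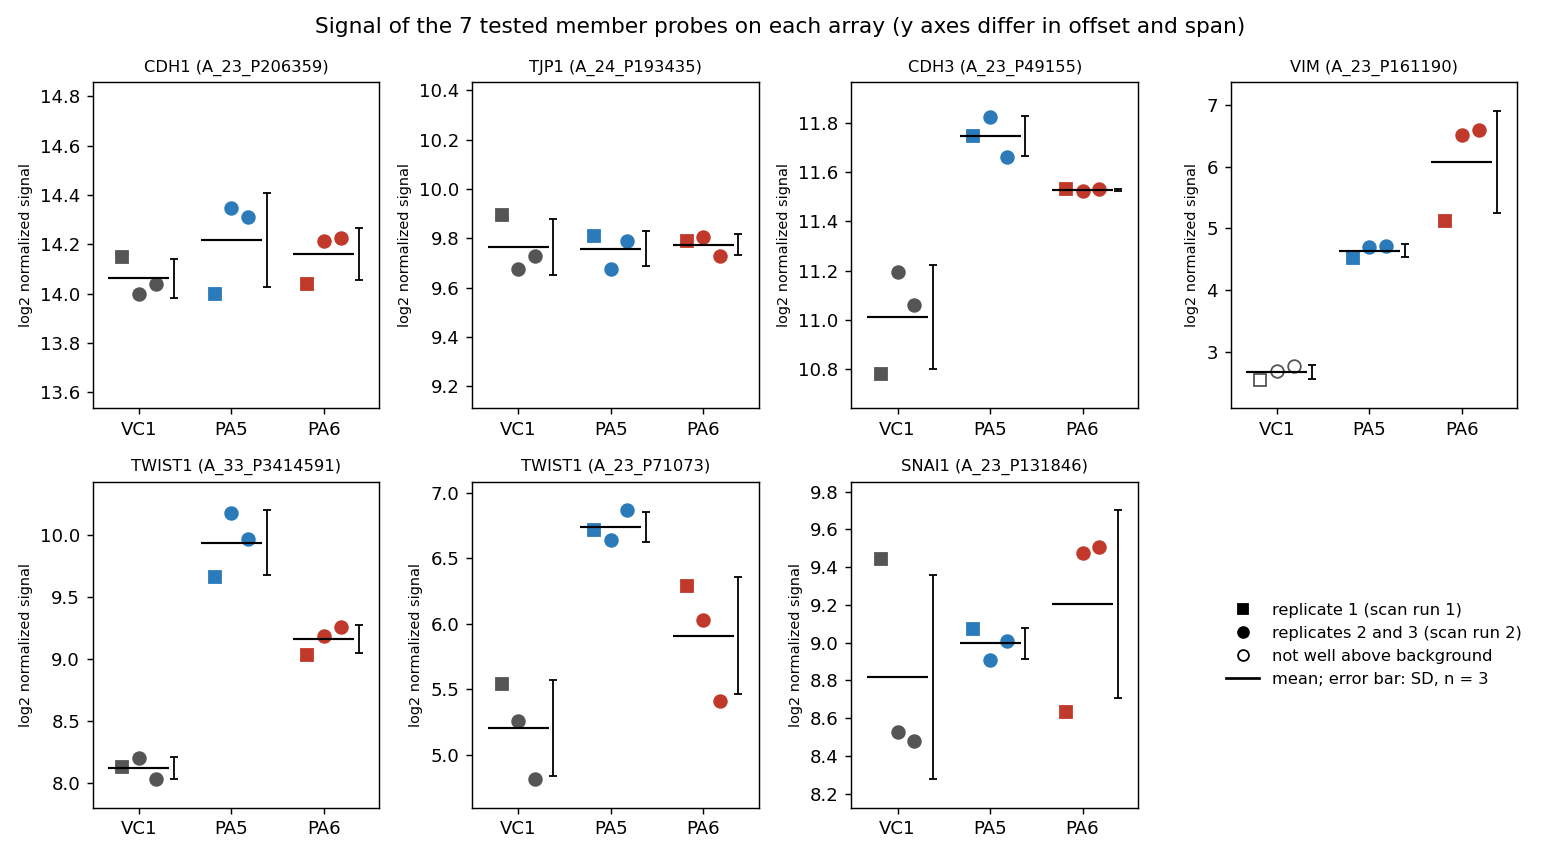
Log2 normalized signal (y axis, whose offset and span differ between panels) of the 7 tested probes on each array of T47D-VC1, T47D-PA5 and T47D-PA6 (x axis). Squares are replicate 1 (scan run 1), circles replicates 2 and 3 (scan run 2), open symbols arrays not well above background, lines the mean of 3 arrays and bars the SD. The lines separate for VIM, for the first TWIST1 probe and for CDH3, whereas replicate 1 of SNAI1 runs opposite to replicates 2 and 3 in T47D-VC1 and T47D-PA6.

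CDH1, which encodes E-cadherin, passed the test in none of the 3 comparisons. Its probe at chr16:68869214-68869273 (hg19), 136342 bases from the CDH3 probe on the same chromosome, is printed in 10 spots on each array. The mean of its spots gave normalized signals of 18150.2, 16352 and 16845 in T47D-VC1, 16376, 20832 and 20319 in T47D-PA5, and 16826, 19006 and 19176 in T47D-PA6. The lines overlapped. The log2 fold change was 0.10 in T47D-PA6 over T47D-VC1, with a 95% interval of -0.18 to 0.38 (limma, adjusted p = 0.661), and 0.16 in T47D-PA5 over T47D-VC1, with an interval of -0.12 to 0.44 (limma, adjusted p = 0.604). The lower ends of these intervals, -0.18 and -0.12, measure only the spread between arrays, which may be technical. No limit on a loss of CDH1 mRNA is drawn from them. Within scan run 1 CDH1 was 0.11 and 0.15 lower in T47D-PA6 and T47D-PA5 than in T47D-VC1 on the log2 scale, and within scan run 2 it was 0.20 and 0.30 higher, with adjusted p = 0.0276 for T47D-PA5 (limma).

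TJP1, the gene for the tight junction scaffold ZO-1, had the smallest differences of the 7 tested probes. Its normalized signals were 951, 817 and 848 in T47D-VC1, 896, 818 and 885 in T47D-PA5, and 884, 895 and 847 in T47D-PA6. The 3 lines overlapped throughout. The log2 fold change of T47D-PA6 over T47D-VC1 was 0.01, with a 95% interval of -0.22 to 0.23 (limma, adjusted p = 0.969), and that of T47D-PA5 over T47D-VC1 was -0.01, with an interval of -0.23 to 0.22 (limma, adjusted p = 0.984).

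SNAI1, the zinc finger repressor Snail that binds the CDH1 promoter, spread widely within T47D-VC1 and T47D-PA6. Its normalized signals were 696, 369 and 357 in T47D-VC1, 539, 481 and 514 in T47D-PA5, and 396, 712 and 726 in T47D-PA6. In T47D-VC1 replicate 1 was the high array, and in T47D-PA6 it was the low one, so the lines overlapped. Over all arrays T47D-PA6 was 0.39 ± 0.30 above T47D-VC1 on the log2 scale (SE, limma, adjusted p = 0.463). The direction turned with the scan run: T47D-PA6 minus T47D-VC1 was -0.81 within scan run 1, from 1 array each, and 0.99 within scan run 2 (limma, adjusted p = 0.000959). T47D-PA5 minus T47D-VC1 likewise was -0.37 within scan run 1 and 0.46 within scan run 2 (limma, adjusted p = 0.0142). Scan run, slide and replicate number coincide for replicate 1 and cannot be told apart, so no direction of SNAI1 is drawn from the 9 arrays.

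The remaining repressors and N-cadherin were at the floor of the arrays. Among probes marked as well above background the dimmest had a normalized signal of 9.59 to 15.2, depending on the array. SNAI2, which encodes Slug, ranged from 2.64 to 5.33 over the 9 arrays. The ZEB1 probes ranged from 2.70 to 8.81 and the 3 ZEB2 probes from 2.64 to 4.57. Of the CDH2 probes, 1 ranged from 2.85 to 3.45, and the other, from 8.61 to 14.7, was well above background on 1 array of T47D-PA5 and 1 of T47D-PA6. These values are bounds, and differences between lines in these genes were not measurable on these arrays. By a looser mark of the same software, a signal positive and significant against the local background, 8 probes passed on every T47D-VC1 array and 9 on every array of T47D-PA5 and of T47D-PA6. Beside the 7 tested probes these were the second CDH2 probe in all 3 lines, the SNAI2 probe in T47D-PA6 and 1 ZEB1 probe in T47D-PA5. The SNAI2 probe passed on 0 arrays of T47D-VC1 and 2 of T47D-PA5, and that ZEB1 probe on 2 arrays of T47D-VC1 and 0 of T47D-PA6. VIM passed it on all 3 arrays of T47D-VC1.

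Counted together, 3 of the 7 tested probes were called in T47D-PA6 over T47D-VC1, all 3 higher, where 10.6% of the 26171 probes tested were called and 4.43% were called higher. In T47D-PA5 over T47D-VC1 4 of the 7 were called, all higher, beside 1.62% of all tested probes and 1.29% called higher. In both comparisons the called probes stood for 3 of the 6 tested genes, VIM, TWIST1 and CDH3. Both TWIST1 mRNA probes were called in T47D-PA5 over T47D-VC1. These comparisons share the T47D-VC1 arrays, and the genes were chosen with earlier results of these data known. In T47D-PA6 over T47D-PA5 2 of the 7 were called, VIM higher and the first TWIST1 probe lower, where 9.91% of all tested probes were called. The median log2 fold change of the 7 probes was 0.52, 0.73 and -0.06 in these comparisons, beside -0.05, -0.03 and -0.01 over all tested probes. Against T47D-VC1 the bound of VIM also lay above the median, so using the bound could not move the median. The count for T47D-PA5 over T47D-VC1 was 2 without replicate 2 of T47D-VC1 and 1 without its replicate 3 or without replicate 2 or 3 of T47D-PA5. The count for T47D-PA6 over T47D-PA5 was 0 without replicate 3 of T47D-PA5, and 1 without replicate 2 or 3 of T47D-VC1 or of T47D-PA6 or without replicate 1 or 2 of T47D-PA5. VIM passed the filter only through the PTH-AS lines, so its count in the first comparisons partly follows from the filter. For scale, the interferon-stimulated genes IFIT1 and ISG15 rose by 5.81 and 6.34 on the log2 scale in T47D-PA6 over T47D-VC1 (limma, adjusted p = 0.000405 for both), and by 3.06 and 3.11 in T47D-PA5 over T47D-VC1 (limma, adjusted p = 0.0124 and 0.0128).

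**Figure D3:**
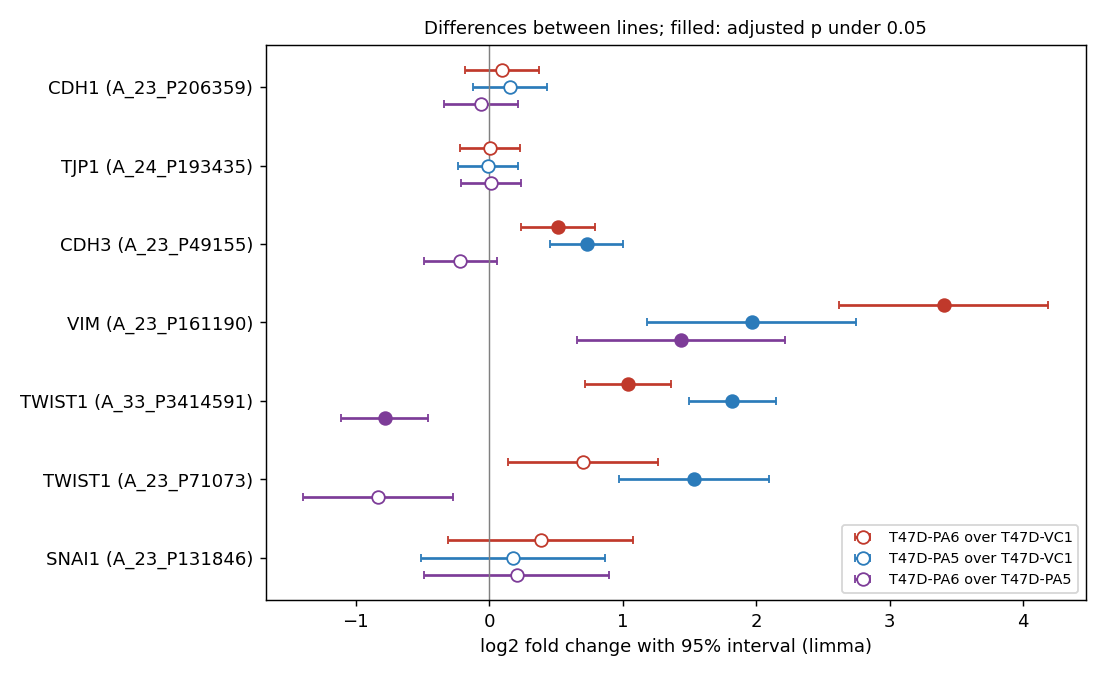
Log2 fold change (x axis) with its 95% interval from limma for the 7 tested probes (y axis) in each comparison between lines; filled points have an adjusted p under 0.05. VIM lies furthest right in all 3 comparisons, but against T47D-VC1 its fitted points rest on signals below background there and give no size. The intervals of CDH1, TJP1 and SNAI1 include 0.

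The wider program was read from 182 genes in 13 lists of junction genes, epithelial and mesenchymal genes, regulators and cell type markers, of which 130 were tested, each from its brightest tested probe. The lists too were chosen with earlier results of these data known. In T47D-PA6 over T47D-VC1 14 of the 130 were called, 9 higher and 5 lower, beside 10.1% of all 20106 genes tested. In T47D-PA5 over T47D-VC1 3 were called, all higher, beside 1.65% called and 1.35% called higher, and in T47D-PA6 over T47D-PA5 17 were called, 5 higher and 12 lower, beside 9.65%. Leaving out 1 array moved these counts between 4 and 16, between 1 and 4, and between 8 and 24. In T47D-PA6 over T47D-VC1 the count was 7 and 4 without replicate 2 and 3 of T47D-VC1, 8 without either of replicates 2 and 3 of T47D-PA5, and 4 and 6 without replicate 2 and 3 of T47D-PA6. For T47D-PA5 over T47D-VC1 the count was 1 without replicate 2 or 3 of T47D-VC1 or of T47D-PA5 or without replicate 2 of T47D-PA6. In T47D-PA6 over T47D-PA5 it was 9 and 8 without replicate 2 and 3 of T47D-PA5 and 8 without either of replicates 2 and 3 of T47D-PA6.

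Genes that work beside CDH1 in epithelial cells were read next. All 21 epithelial regulators and surface genes were tested, among them GRHL2 and OVOL2, which hold ZEB1 down, the splicing factors ESRP1 and ESRP2, and the adhesion protein gene EPCAM, and 0 were called by limma in any of the 3 comparisons. Of all genes 10.1% were called in T47D-PA6 over T47D-VC1, 1.65% in T47D-PA5 over T47D-VC1 and 9.65% in T47D-PA6 over T47D-PA5. At these shares 0 calls in a list of this size say little, least of all in T47D-PA5 over T47D-VC1. At an unadjusted p under 0.05 limma gave 1 in each. The methods' unpaired test, the unpaired t test of the study's general statistics, gave 0 after adjustment. For its arrays the study instead defined changes by fold. The log2 fold changes of these 21 genes in T47D-PA6 over T47D-VC1 lay between -0.38 and 0.38. Of the desmosome genes 8 of 11 were tested and again 0 were called by limma in any comparison, with 2, 2 and 3 at an unadjusted p under 0.05. At the same shares of all genes, 0 calls among 8 genes say little. The methods' unpaired test called 1 after adjustment, in T47D-PA6 over T47D-PA5. Their log2 fold changes lay between -0.29 and 0.29 in T47D-PA6 over T47D-VC1. Of the cadherin-binding and nectin genes 13 of 14 were tested, and NECTIN1, a nectin adhesion receptor, fell by 0.56 on the log2 scale in T47D-PA6 over T47D-VC1 (limma, adjusted p = 0.0491), a call that passed in 2 of 9 refits without 1 array and not with the replicate block (limma, adjusted p = 0.063).

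Of 20 tight junction genes tested 3 were called in T47D-PA6 over T47D-VC1, beside 10.1% of all genes, and 4 in T47D-PA6 over T47D-PA5, beside 9.65%. The polarity gene CRB3 rose by 0.56 (limma, adjusted p = 0.0323) and the claudin gene CLDN7 by 0.41 (limma, adjusted p = 0.0408) in T47D-PA6 over T47D-VC1. CLDN1, a claudin, was called in T47D-PA5 over T47D-VC1, at 1.62 on the log2 scale (limma, adjusted p = 0.0427). Of these, the CRB3 call passed in 3 of 9 refits without 1 array, and those of CLDN7 and CLDN1 in 2 each, and all 3 kept their sign.

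On the mesenchymal side 11 of 21 listed genes were tested, and limma called 3 in T47D-PA6 over T47D-VC1, beside 10.1% of all genes. In T47D-PA5 over T47D-VC1 it called 0, beside 1.65% of all genes. There 3 had an unadjusted p under 0.05, and the methods' test called 0 after adjustment. SPARC, a matrix-binding glycoprotein gene, had normalized signals of 11.2, 11.6 and 9.80 in T47D-VC1, 6.40, 11.2 and 7.20 in T47D-PA5, and 41.0, 102 and 94.5 in T47D-PA6. It was well above background in T47D-PA6 alone, at least 5.89-fold higher than in T47D-VC1 and at least 5.66-fold higher than in T47D-PA5. The tests used its signals without a floor, below background in T47D-VC1 and T47D-PA5 (limma, adjusted p = 0.00277 and 0.00237). Both calls passed in 9 of 9 refits. SPARC passed the filter only through T47D-PA6, the line where it is high, so its place in these counts partly follows from the filter. The receptor tyrosine kinase gene AXL rose by 0.90 on the log2 scale in T47D-PA6 over T47D-VC1 (limma, adjusted p = 0.0435), a call that passed in 1 of 9 refits. COL1A1, a fibrillar collagen gene, fell by 0.50 (limma, adjusted p = 0.02), and this call was lost without replicate 3 of T47D-VC1 or replicate 2 of T47D-PA6. FN1, the gene for fibronectin, was not among the tested genes, nor were MMP2, POSTN and LOX.

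Of 16 other transcription factors of the transition 11 were tested, and 3 were called in T47D-PA6 over T47D-VC1, all higher, beside 10.1% of all genes called. The forkhead factor FOXC1 rose by 0.65 on the log2 scale in that comparison (limma, adjusted p = 0.0117), lost without replicate 3 of T47D-VC1 or replicate 2 of T47D-PA6. The architectural factor HMGA2 rose by 0.51 (limma, adjusted p = 0.0359), which passed in 1 of 9 refits. Among the cofactors and turnover factors of SNAI and ZEB proteins, 18 of 19 were tested. SUZ12, a Polycomb subunit, was the 1 called in T47D-PA6 over T47D-VC1, beside 10.1% of all genes. It fell by 0.40 (limma, adjusted p = 0.0296), a call that passed in 3 of 9 refits.

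Among the other cadherins 6 of 16 were tested, and CDH10, a type II cadherin best known from the nervous system, was the 1 called in each comparison. Of all genes 10.1% were called in T47D-PA6 over T47D-VC1, 1.65% in T47D-PA5 over T47D-VC1 and 9.65% in T47D-PA6 over T47D-PA5. The normalized signals of CDH10 were 98.5, 118 and 122 in T47D-VC1, 1536, 841 and 839.7 in T47D-PA5, and 249.9, 217 and 248 in T47D-PA6. As for TWIST1 and CDH3, T47D-PA5 was the highest line, and the 3 lines did not overlap. The log2 fold change was 3.19 ± 0.23 in T47D-PA5 over T47D-VC1 (SE, limma, adjusted p = 0.000561), called in 9 of 9 refits, and 1.08 ± 0.23 in T47D-PA6 over T47D-VC1 (SE, limma, adjusted p = 0.0219), called in 5. Of the intermediate filament partners of vimentin 6 of 12 were tested and 0 were called against T47D-VC1 by limma, with 2 in T47D-PA6 and 1 in T47D-PA5 at an unadjusted p under 0.05 and 0 by the methods' test after adjustment. Beside the shares of all genes called, 0 calls among 6 genes say little.

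**Figure D4:**
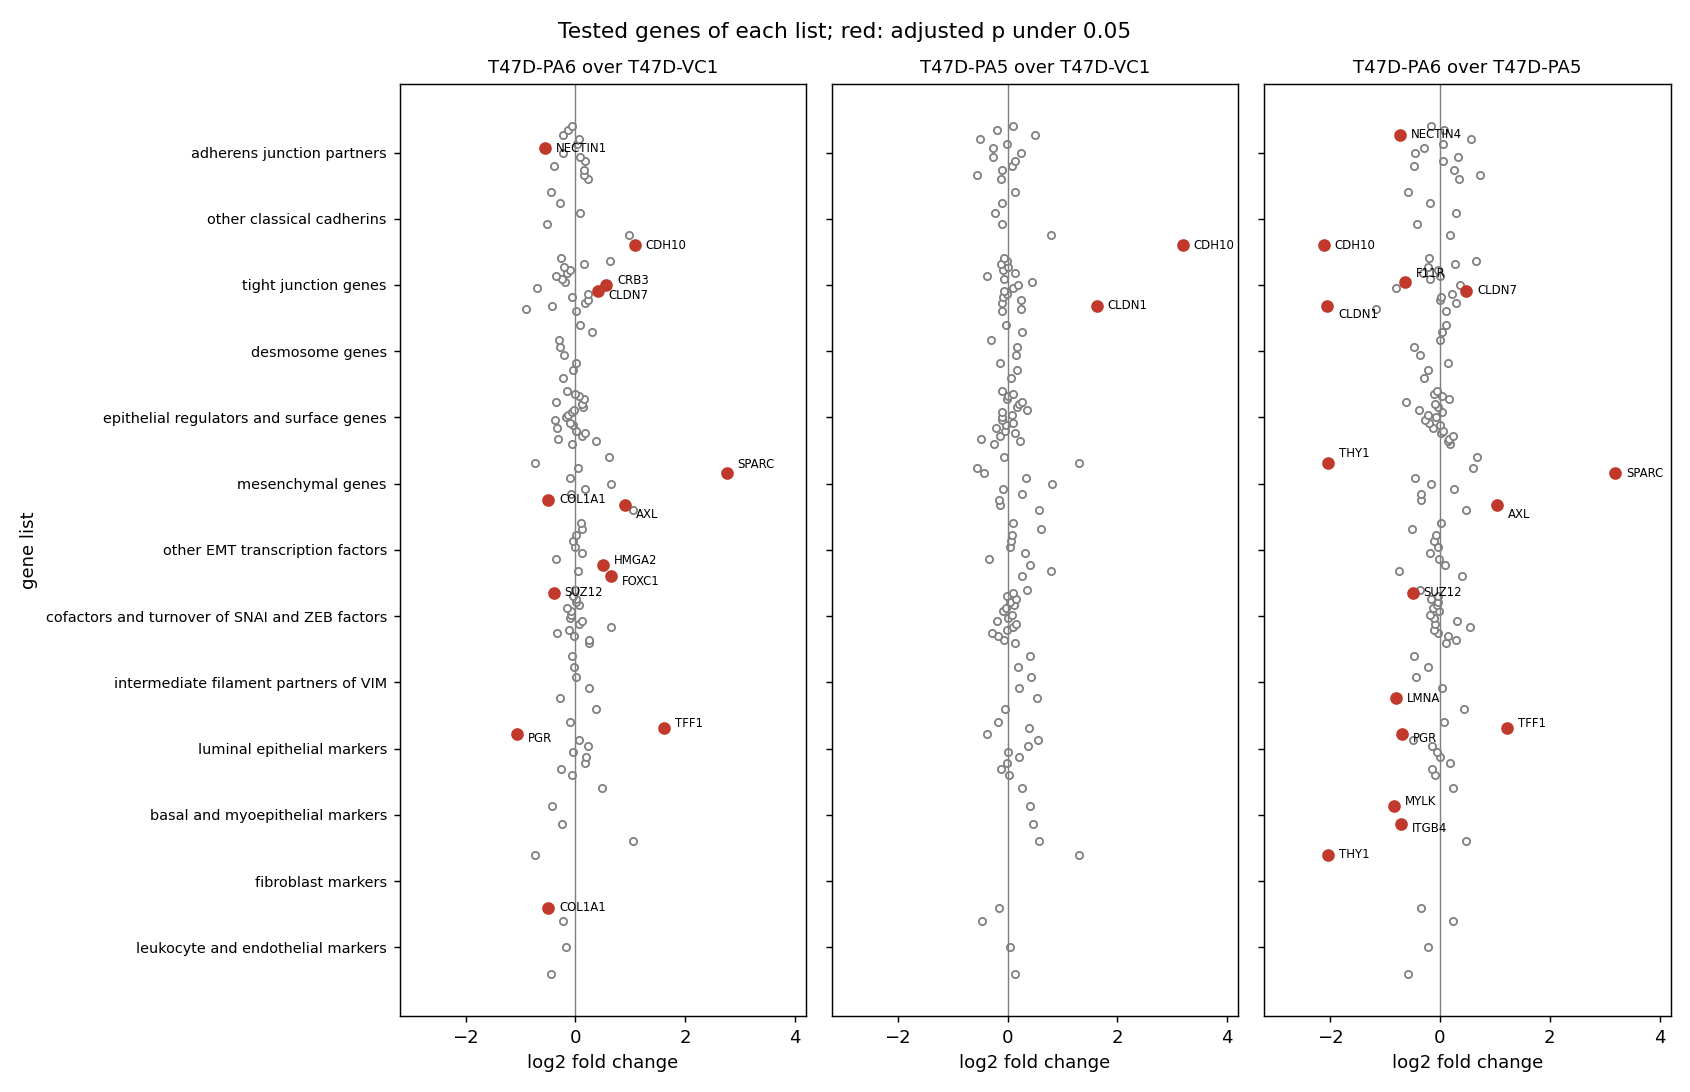
Log2 fold change (x axis) of the tested genes of the 13 lists, without 3 that are not reported here, (y axis) in T47D-PA6 over T47D-VC1, T47D-PA5 over T47D-VC1 and T47D-PA6 over T47D-PA5; red points, named, have an adjusted p under 0.05 and open points do not. The rows of desmosome genes and of epithelial regulators hold 0 red points, and SPARC and CDH10 lie furthest from 0, SPARC against arrays of T47D-VC1 and T47D-PA5 that were not well above background.

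Markers of breast cell types were read beside these genes. All 10 luminal markers, with keratins, ESR1, GATA3 and FOXA1, were detected on every array of each line. PGR, the progesterone receptor gene, fell by 1.07 and TFF1, an estrogen-induced trefoil gene, rose by 1.62 on the log2 scale in T47D-PA6 over T47D-VC1 (limma, adjusted p = 0.00681 and 0.00115), and both passed in 9 of 9 refits. Of 10 basal and myoepithelial markers 5 were detected on every array of each line, while KRT5 and TP63 were detected on none. The basal keratin genes KRT14 and KRT17 were detected on 0 arrays of T47D-VC1, on 1 array of T47D-PA5 (replicate 1, with signals of 33.0 and 27.8), and on 2 arrays and 1 array of T47D-PA6, with signals up to 17.5 and 15.1. Their highest signals in T47D-VC1 were 7.35 and 11.5. The summed normalized signal of the basal markers was 4941 to 6875 in T47D-VC1, 8705 to 9026 in T47D-PA5 and 5666 to 6376 in T47D-PA6. Most of it came from the integrin gene ITGB4, at 4252 to 5805, 7036 to 7248 and 3974 to 4955. The part of these markers in the level of CDH3 was not tested.

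Of 10 fibroblast markers 2, COL1A1 and THY1, were detected on every array, while COL1A2, COL3A1, DCN, LUM, PDGFRA, FAP and PDPN were detected on none. The summed normalized signal of the fibroblast markers was 451 to 524 in T47D-VC1, 518 to 897 in T47D-PA5 and 309 to 388 in T47D-PA6. The highest T47D-PA5 value was that of replicate 1, where THY1 alone had a signal of 575. The part of these markers in the level of VIM was not tested. Of 9 leukocyte and endothelial markers 3 were detected on every array of each line, and their sum was 87.8 to 112 in T47D-VC1, 96.1 to 119.5 in T47D-PA5 and 80.3 to 94.5 in T47D-PA6.

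As a description, the genes whose pattern over the 9 arrays was most like that of CDH1 were TSC22D2 (Pearson r = 0.970), DACT3 (r = 0.969) and FER1L4 (r = 0.961). For VIM they were ADAMTS4 (r = 0.996), MBP (r = 0.995) and LAPTM5 (r = 0.994). The 9 arrays share 3 lines and 2 scan runs, and the VIM, MBP and LAPTM5 values of T47D-VC1 were below background. MBP was detected on 6 of the 9 arrays and LAPTM5 on 5. ADAMTS4, a secreted protease gene detected on all 9 arrays, had normalized signals of 111 to 159.7 in T47D-VC1, 501 to 739 in T47D-PA5 and 795 to 3076 in T47D-PA6, with replicate 1 lowest in each line as for VIM.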

How the data were processed

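The 10 genes and the 13 lists were chosen with earlier results of these data known. Per the labels and the file headers, the authors hybridized RNA to SurePrint G3 Human v3 one-color arrays and deposited background-corrected spot intensity values. The headers name Feature Extraction 10.7.1.1 and probe positions on hg19, and the submitters' processing notes name 9.5.1.1. A second deposited table of intensity values, quantile-normalized by the authors, served as an alternative. Here spots marked as outliers (46 to 117 per array) were left out, log2 intensity was averaged over the spots of a probe and quantile-normalized between arrays. Detection was 44.0% to 48.0% of probes per array, and no spot was saturated. The precision is limited by the number of arrays, 3 per line. Lines were compared in 1 limma 3.58.1 fit (lmFit and eBayes, R 4.3.3) over 9 arrays with 6 residual degrees of freedom and Benjamini-Hochberg adjustment over 26171 tested probes, at a threshold of 0.05. List genes were read from the same fit, each from its brightest tested probe. Replicates 2 and 3 of a line differed by a median of 0.09 to 0.11 on the log2 scale, and replicate 1 differed from them by 0.21 to 0.27. Deviations from the line means of same-numbered arrays correlated at 0.13 to 0.33 in every pair of T47D-PA6 with another line. Of T47D-VC1 with T47D-PA5 they correlated at 0.08 to 0.19, with replicate 2 under 0.1. Replicate 1 of every line was read in scan run 1, and arrays of unlike number were not compared. A pairing by number and a shift between scan runs therefore cannot be told apart. The fit has no block, and values with the replicate block are given where they change a call. The fit was tested on simulated data.

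All 10 genes are named with all their probes. From each list the text names genes with an adjusted p under 0.05 in any comparison, at most 4 per list and comparison by size, and for CDH1 and VIM the 3 genes with the highest Pearson r; IFIT1 and ISG15 were kept for reference. Genes named as detected, tested or left untested in a list were named after their values were seen. Alternatives changed the scaling, background correction, filter, blocks, arrays, variance model, gene-level reading or test. Of the listed genes 3 that met the rule for naming are not reported here.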

Additional observations from a re-analysis of the deposited data

Results flagged for a closer look

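The results given here differ between the 2 PTH-AS lines, T47D-PA6 over T47D-PA5, with an adjusted p under 0.05 in limma, where at least 1 of the lines also differed from T47D-VC1. The comparisons with T47D-VC1 use the same 3 arrays of that line. Among the switch genes these were VIM, at 1.44 on the log2 scale, and TWIST1 on its first probe, at -0.78. Among the listed genes higher in T47D-PA6 were SPARC with a fitted 3.20, TFF1 at 1.23, AXL at 1.04 and CLDN7 at 0.48. Since 0 of the 3 T47D-PA5 arrays detected SPARC, its size is given only by the bound of at least 5.66-fold. Lower in T47D-PA6 were CDH10 at -2.11, CLDN1 at -2.05, PGR at -0.69 and SUZ12 at -0.49. Of these 10 values, the calls of VIM, AXL, CLDN7, PGR, SUZ12 and TWIST1 were lost in at least 1 refit without 1 array. That of PGR was also lost with the replicate block (limma, adjusted p = 0.0606).

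With groups of 3 arrays, single arrays far from their group were not tested for.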

How the results depend on the processing

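The direction of a called value turned under 0 of the alternatives. Of the switch gene probes, the first TWIST1 probe over T47D-VC1 was called under 24 of 24 alternatives with a test in T47D-PA6 and under 23 in T47D-PA5, and VIM over T47D-VC1, where its T47D-VC1 level is only a bound, under 22 of 23 in T47D-PA6 and under 15 in T47D-PA5. CDH3 over T47D-VC1 was called under 15 of 24 in T47D-PA6 and under 17 in T47D-PA5. These alternatives include the methods' unpaired test read at an unadjusted p. They also include a reading from the mean of a gene's tested probes, which for TWIST1 joins both mRNA probes. The cause of the changes below was not tested.

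The count of switch gene probes called was 3 in T47D-PA6 over T47D-VC1, 4 in T47D-PA5 over T47D-VC1 and 2 in T47D-PA6 over T47D-PA5. With no filter on dim probes, where more probes are tested, it was 2 in T47D-PA5 over T47D-VC1 and 1 in T47D-PA6 over T47D-PA5. It was also 1 in the last comparison with probes well above background on all 9 arrays, which leaves out VIM, and with only the compared lines in the fit. The methods' unpaired test gave 1, 1 and 0 after adjustment, and 4 unadjusted in T47D-PA6 over T47D-PA5. Within scan run 2, with 3 residual degrees of freedom, that count was 4. Without 1 array the counts ran from 2 to 3, from 1 to 4 and from 0 to 3.

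The count of listed genes called was 14, 3 and 17. In T47D-PA6 over T47D-VC1 it was 8 with no filter, 7 with only the compared lines, 4 by the methods' unpaired test after adjustment and 29 without adjustment, and 56 within scan run 2. For T47D-PA5 over T47D-VC1 the count was 5 with normexp, with slide as a block or with an intensity trend, 9 with scan run as a block, 0 and 19 by the methods' test with and without adjustment, and 30 within scan run 2. In T47D-PA6 over T47D-PA5 it was 30 with scan run as a block, 7 and 35 by the methods' test, and 62 within scan run 2. Without 1 array the counts ran from 4 to 16, from 1 to 4 and from 8 to 24.

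With a replicate block 3, 4 and 3 switch gene probes and 16, 3 and 16 listed genes were called. Beside the values given with the genes, the block ended the call of CLDN1 in T47D-PA5 over T47D-VC1 (limma, adjusted p = 0.0722) and changed no other call of a named switch or listed gene. Depth on arrays is signal over background, and it limits VIM in T47D-VC1 and all of CDH2, SNAI2, ZEB1 and ZEB2 to bounds.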

Other observations

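Genes of the lists that were called in T47D-PA6 over T47D-PA5 alone were all lower in T47D-PA6. They were the lamin gene LMNA (fell by 0.81 in log2 units, limma, adjusted p = 0.00523), the junctional adhesion molecule gene F11R (fell by 0.64, adjusted p = 0.00712) and the integrin gene ITGB4 (fell by 0.70, adjusted p = 0.0201). The others were the kinase gene MYLK (fell by 0.84, adjusted p = 0.0462), the nectin gene NECTIN4 (fell by 0.73, adjusted p = 0.0368) and the surface glycoprotein gene THY1 (fell by 2.03, adjusted p = 0.0305). The calls of LMNA and F11R passed in 9 of 9 refits without 1 array, ITGB4 in 5, THY1 in 4, NECTIN4 in 3 and MYLK in 2. With the replicate block MYLK and NECTIN4 were not called (limma, adjusted p = 0.0758 and 0.0558). THY1 had a normalized signal of 575 on replicate 1 of T47D-PA5 and of 151 and 199.7 on replicates 2 and 3. The signals of LMNA were 14771 to 16162 in T47D-VC1, 20969 to 23469 in T47D-PA5 and 11781 to 14450 in T47D-PA6. Those of F11R were 22119 to 23798, 28304 to 33566 and 19427 to 20643.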
